A study of Pan troglodytes with 6 samples.

Results

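The alcohol, aldehyde and hydroxysteroid dehydrogenases described here, with related reductases and oxidases, are enzymes that oxidise or reduce alcohols, carbonyls, steroids, retinoids, amines and purines. They were chosen by gene symbol. The rule took features whose platform annotation gives 1 symbol beginning with ADH, ALDH, AKR, HSD, DHRS, RDH or FMO, together with AOX1, XDH, MAOA and MAOB, and it left out ALDH1L1. It found 57 genes among the 12584 that the 15143 features of the array name singly, and none of the 57 had more than 1 such row. A further 10 features carry several symbols of which at least 1 matches the rule, among them those of MAOB and of ADH1A and ADH1C. They were not counted among the 57. RNA from 3 cerebellums and 3 livers of chimpanzees (Pan troglodytes) was hybridised to Affymetrix Human Exon 1.0 ST arrays, 1 array per sample. By the labels, replicate 1 of each tissue came from a female aged 27 years, replicate 2 from a male aged 37 years and replicate 3 from a male aged 30 years, and no treatment is named for either tissue. The labels do not say whether samples of the same number came from the same animal.

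Dehydrogenases of these families pass hydride between a substrate and a nicotinamide cofactor, and many act in chains, with an alcohol dehydrogenase making an aldehyde that an aldehyde dehydrogenase turns into an acid. Hepatocytes are known for a large capacity of this kind, which serves the clearance of ethanol, steroids, bile acid precursors, retinoids and foreign compounds. Brain is known to hold its own enzymes for the breakdown of GABA and monoamines and for making retinoic acid from retinal.

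The values are quantile normalised intensities, so they show no difference in total signal between arrays. Markers of the labelled tissues were in place. All 5 measured hepatocyte markers were higher in liver, with summed intensities of 13990 to 19152 against 73.0 to 117, and all 7 measured markers of cerebellar neurons were higher in cerebellum, with 12386 to 13440 against 228.0 to 418. Macrophage and microglia markers were higher in liver for 8 of 8, endothelial markers for 5 of 6, and markers of stellate cells, fibroblasts and smooth muscle for 6 of 7. Liver replicate 3 stood apart from the other livers. Its hepatocyte sum was the lowest of the livers, its macrophage sum was 7797 against 4720 and 4514, and its stellate and fibroblast sum was 4021 against 1758 and 1517. The single markers were not uniform. FGB, CPS1 and TAT, 3 of the 5 hepatocyte markers, were lowest in liver replicate 3, while ALB and APOB were highest there. All 8 macrophage markers and 5 of the 7 stellate and fibroblast markers were highest in that array, while LRAT and RGS5 were lowest. Among the cerebellums, replicate 2 had the highest sums of macrophage markers (467 against 241 and 227), endothelial markers (257 against 120 and 106), stellate and fibroblast markers (1226 against 524 and 485), astrocyte markers (6707 against 4195 and 5165) and neuron markers (13440 against 12386 and 12593). Single markers varied here too. SNAP25 (3676 against 4700 and 4194) and ZIC1 (2852 against 3151 and 3882) were lowest in cerebellum replicate 2. So were COL1A1, COL3A1 and STAB2, while CSF1R, MARCO and SLC1A3 were highest in another cerebellum. Cerebellum replicate 1 had the highest oligodendrocyte sum, 4442 against 1048 and 1550.3. No marker on these lists was at or below 0 on all 3 arrays of a tissue. In whole tissue, fewer cells of a type and less RNA per cell cannot be told apart.

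Of the 57 enzymes, 39 were higher in liver and 3 were higher in cerebellum (limma, Benjamini-Hochberg adjusted p under 0.05 over all 15143 features), and 15 passed in neither direction. Over all features, 23.9% were higher in liver and 26.7% in cerebellum, together 50.6%, against 68.4% and 5.26% of the enzymes. The median difference, cerebellum minus liver on the scale of log2(intensity + 16.8), was -1.37 for the enzymes and 0.04 for all features. A difference of at least 2-fold beside the adjusted p was met by 31 enzymes toward liver, where 15.8% of all features met it, and by 3 toward cerebellum, where 17.2% did. At 16-fold or more toward liver there were 8 enzymes, against 1.64% of all features. That count depends on the added 16.8, the pseudocount, and 10 of the 39 enzymes higher in liver had a cerebellum mean below it. With a pseudocount of 38.3 ADH6 fell short of 16-fold (log2 difference -3.86). With 4.20 AKR1D1, RDH10 and XDH, among others, exceeded it (-4.70, -4.57 and -4.14). All 3 livers lay above all 3 cerebellums for 40 of the 57, where this held for 28.5% of features, and the reverse was true for 4, where it held for 31% of features. When the arrays were aligned on 111 genes of ribosomal proteins, the proteasome, the respiratory chain and the ATP synthase, the median of all features moved from 0.04 to 0.54, and the share of all calls that lay toward cerebellum went from 52.8% to 76%. The enzymes then gave 30 calls toward liver and 7 toward cerebellum, and their median was -0.87.

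**Figure D1:**
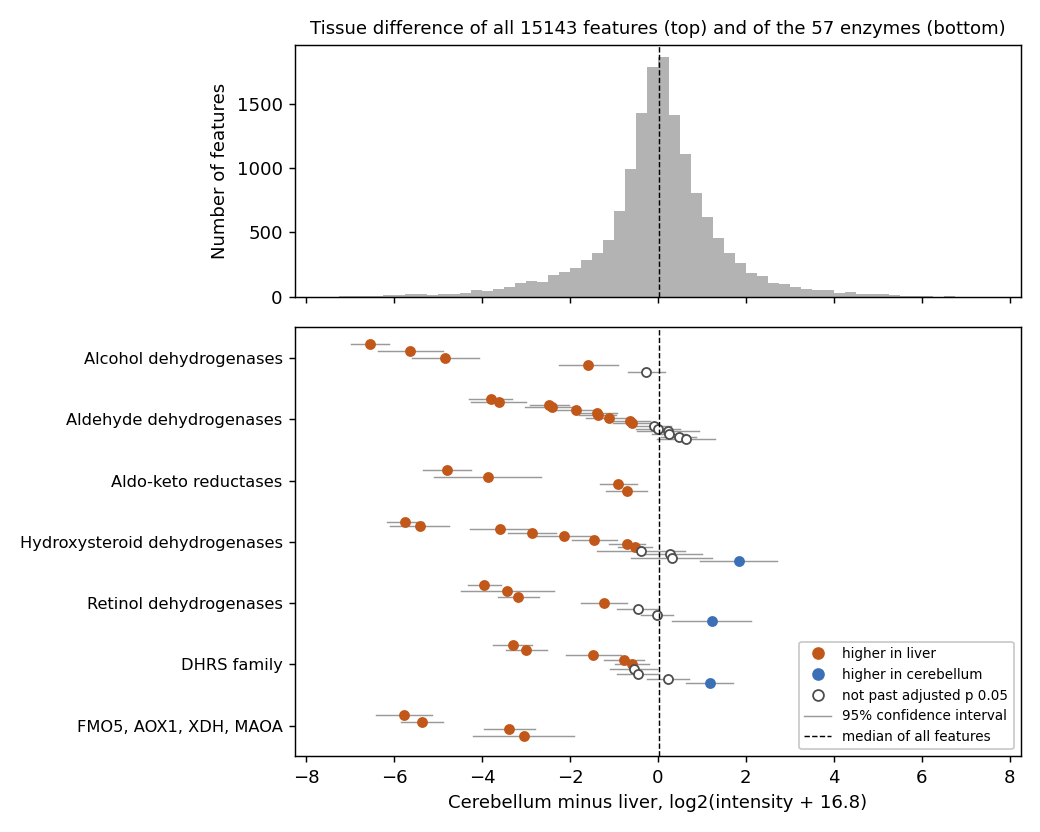
The upper panel counts all 15143 features by their difference between tissues (cerebellum minus liver, log2 scale with a pseudocount of 16.8), and the lower panel gives each of the 57 enzymes as a point with its 95% confidence interval, by class. Orange points are the 39 enzymes higher in liver, blue points the 3 higher in cerebellum and open points the 15 not past an adjusted p of 0.05, and the dashed line marks the median of all features, 0.04.

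Alcohol dehydrogenases open the chain. ADH1B, a class I enzyme that carries much of hepatic ethanol oxidation, was at 17.5, 8.75 and 11.3 in the cerebellums and at 2833, 2932 and 2354 in the livers. The livers lay far above the cerebellums on every array, and the log2 difference of -6.55 (SE 0.19; limma, adjusted p = 1.51e-07) was the largest of the 57 enzymes on this scale. ADH4, a class II enzyme that takes longer alcohols and retinol, was at 5.90, 3.42 and 7.78 against 1293, 1600 and 626. ADH6 was at 2.69, 5.42 and 3.10 against 862, 673 and 314. Both were lowest in liver replicate 3, with log2 differences of -5.63 and -4.84. The cerebellum means of ADH1B, ADH4 and ADH6 were below the pseudocount, so the size of their differences depends on it, and with a pseudocount of 4.20 they were -7.37, -6.81 and -6.19. ADH5, the class III enzyme that clears formaldehyde bound to glutathione and is expressed widely, was also higher in liver but was clearly measured in both tissues, at 234, 489 and 233 against 860, 833 and 1118 (log2 difference -1.58, SE 0.29; limma, adjusted p = 0.00216). Cerebellum replicate 2 was the high one and still lay below every liver. ADH7, the class IV enzyme of stomach and other epithelia, did not pass the test, with 19.3 ± 2.45 in cerebellum and 26.8 ± 6.56 in liver (mean ± SD, n = 3 each, as below) and a 95% confidence interval of the log2 difference from -0.68 to 0.15.

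These 5 genes neighbour each other in the chimpanzee annotation of the assembly NHGRI_mPanTro3-v2.0_pri, in the order ADH5, ADH4, ADH6, ADH1B and ADH7. ADH5, ADH4 and ADH6 follow each other directly, and 1 other coding gene lies on either side of ADH1B. The genes at the 2 ends of this row, ADH5 and ADH7, had the smallest tissue differences, and the 3 between them had the largest. Probes for near-identical class I genes can share signal, so the level of ADH1B may include that of its closest relatives.

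**Figure D2:**
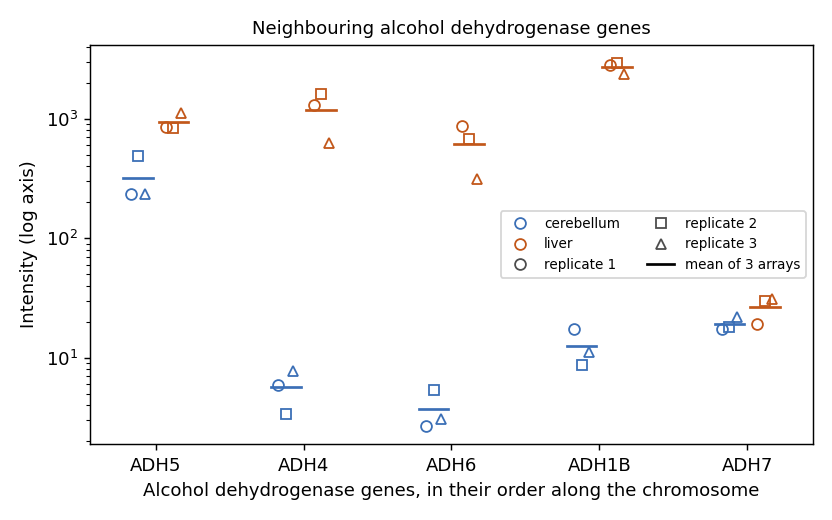
Intensity on a log axis of 5 alcohol dehydrogenases in their order along the chromosome, with 1 symbol per array, shaped by replicate, and a bar at the mean of 3 arrays of a tissue. Blue cerebellum and orange liver values are far apart for ADH4, ADH6 and ADH1B, closer for ADH5 and overlapping for ADH7.

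Other genes of ethanol and acetate handling, from a list of 5 that were all measured, were higher in liver for 4 and passed in neither direction for 1. Catalase, CAT, which can also oxidise ethanol, was at 36.7 ± 9.19 in cerebellum and 1989 ± 165 in liver. CYP2E1, the ethanol-inducible cytochrome, was at 212 ± 142 against 3298 ± 1344 (log2 difference -4.06, SE 0.60). The acetate-activating synthetases ACSS3 and ACSS2 differed by -4.02 and -2.14, and ACSS1 had a difference of 0.66 (limma, adjusted p = 0.140).

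Aldehyde dehydrogenases were higher in liver for 10 of 16 and in cerebellum for 0. The 6 others did not pass, and the median difference of the class was -0.88. ALDH2, the mitochondrial enzyme of acetaldehyde oxidation, was at 361, 480 and 446 in cerebellum and at 2457, 2804 and 2096 in liver (log2 difference -2.47, SE 0.19; limma, adjusted p = 1.31e-05). Its mitochondrial relative ALDH1B1 was at 89.8, 178 and 142 against 637, 714 and 1021 and differed by -2.41. For both enzymes the tissues did not overlap, and the liver values of ALDH1B1 were highest in replicate 3, the opposite of ALDH2.

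The 3 measured retinal dehydrogenases, which make retinoic acid, were called toward liver for 1 and in neither direction for 2. Over all features, 23.9% were called toward liver. ALDH1A1 was at 1011, 1177 and 860 in cerebellum and at 2410, 2633 and 2869 in liver, a log2 difference of -1.37 (SE 0.18; limma, adjusted p = 0.000329) with a strong signal in both tissues. ALDH1A2 was dim throughout, at 12.0, 17.8 and 21.1 against 8.54, 7.62 and 6.17. All 3 cerebellums lay above the livers, but the difference of 0.47 did not pass (limma, adjusted p = 0.0508). It passed with the pseudocount of 4.20 (difference 0.84, limma adjusted p = 0.0158) and not with that of 38.3 (0.27, limma adjusted p = 0.115). ALDH1A3 was at 256, 218 and 302 in cerebellum and at 298, 268 and 124 in liver, where replicate 3 alone lay below the cerebellums, and its interval ran from -0.47 to 0.94. Without that array its difference turned from 0.23 to -0.13 and did not pass either.

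Enzymes that handle aldehydes of amino acids and amines were higher in liver for 6 of 7. ALDH4A1, which completes proline breakdown, showed the largest difference of the aldehyde dehydrogenases, at 28.7, 34.4 and 32.5 in cerebellum and 860, 506 and 662 in liver (log2 difference -3.80, SE 0.22; limma, adjusted p = 2.34e-06). ALDH8A1, an enzyme of tryptophan breakdown by the kynurenine route, followed with 36.2, 18.3 and 25.9 against 752, 454 and 393 and a difference of -3.62. In each of these enzymes the lowest liver was more than 10 times the highest cerebellum. ALDH7A1, which acts in lysine breakdown, and ALDH9A1, which acts on aminobutyraldehyde and in carnitine synthesis, differed by -1.86 and -1.12. A feature shared by ALDH9A1 and CA14P1 had a difference of -0.34 and did not pass (limma, adjusted p = 0.105). ALDH5A1, the succinic semialdehyde dehydrogenase that ends the GABA shunt, was at 203, 229 and 226 in cerebellum and 405, 349 and 273 in liver (difference -0.59, SE 0.19; limma, adjusted p = 0.0303). ALDH18A1, which starts proline synthesis from glutamate, was at 210 ± 23.4 against 340 ± 68.3 (difference -0.64; limma, adjusted p = 0.0273). ALDH5A1 did not pass once any 1 array other than liver replicate 3 was left out (limma, adjusted p from 0.0521 to 0.101), and ALDH18A1 did not once cerebellum 1, cerebellum 2, liver 2 or liver 3 was left out (0.0647 to 0.0953). With the arrays aligned on general genes ALDH5A1, ALDH9A1 and ALDH18A1 were not called.

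ALDH6A1, the methylmalonate semialdehyde dehydrogenase of valine breakdown, stood out from this group. It was at 2715, 2325 and 2537 in cerebellum and at 1910, 2297 and 2125 in liver, so that all cerebellums lay above all livers. The closest pair was cerebellum replicate 2 and liver replicate 2. The difference of 0.26 did not pass (95% confidence interval -0.12 to 0.64; limma, adjusted p = 0.230), and with the arrays aligned on general genes it was 0.76 and passed (limma, adjusted p = 0.0130).

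Genes of the neighbouring steps, 9 measured of a list of 14, were higher in liver for 5 (55.6%, against 23.9% of all features). They were higher in cerebellum for 2 (22.2%, near the 26.7% of all features). The 2 were GAD1 and GAD2, which make the GABA that ALDH5A1 helps to remove, with differences of 3.78 and 1.57. GAD1 was at 375 ± 193 in cerebellum and 9.62 ± 2.50 in liver. AADAT, an aminotransferase of lysine and tryptophan breakdown, showed the largest difference toward liver, at 17.1 ± 1.98 against 165 ± 57.6 (log2 difference -2.37). HIBADH, which precedes ALDH6A1 in valine breakdown, had a difference of -1.76, toward liver.

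Among the other aldehyde dehydrogenases, 1 of 4 was higher in liver (25%, near the 23.9% of all features). ALDH3A2, the fatty aldehyde dehydrogenase, was at 376, 254 and 391 in cerebellum and at 897, 933 and 868 in liver (difference -1.38, SE 0.20; limma, adjusted p = 0.000553). ALDH3A1, best known from the cornea, and ALDH16A1, a little studied member, had nearly equal means, 65.8 ± 4.72 against 67.7 ± 23.3 and 71.7 ± 3.06 against 77.9 ± 13.0. Their intervals of -0.50 to 0.50 and -0.48 to 0.30 leave out a 2-fold difference on this scale. ALDH3B1 had a mean of 230.0 ± 75.2 in cerebellum and 140 ± 42.8 in liver, and its difference of 0.63 did not pass (limma, adjusted p = 0.101). It passed without cerebellum replicate 2, its low array (difference 0.92; limma, adjusted p = 0.0209), and without liver replicate 1, its high one (0.85; adjusted p = 0.0473). ALDH3A2 and ALDH3A1 lie with 1 coding gene between them in the annotation.

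**Figure D3:**
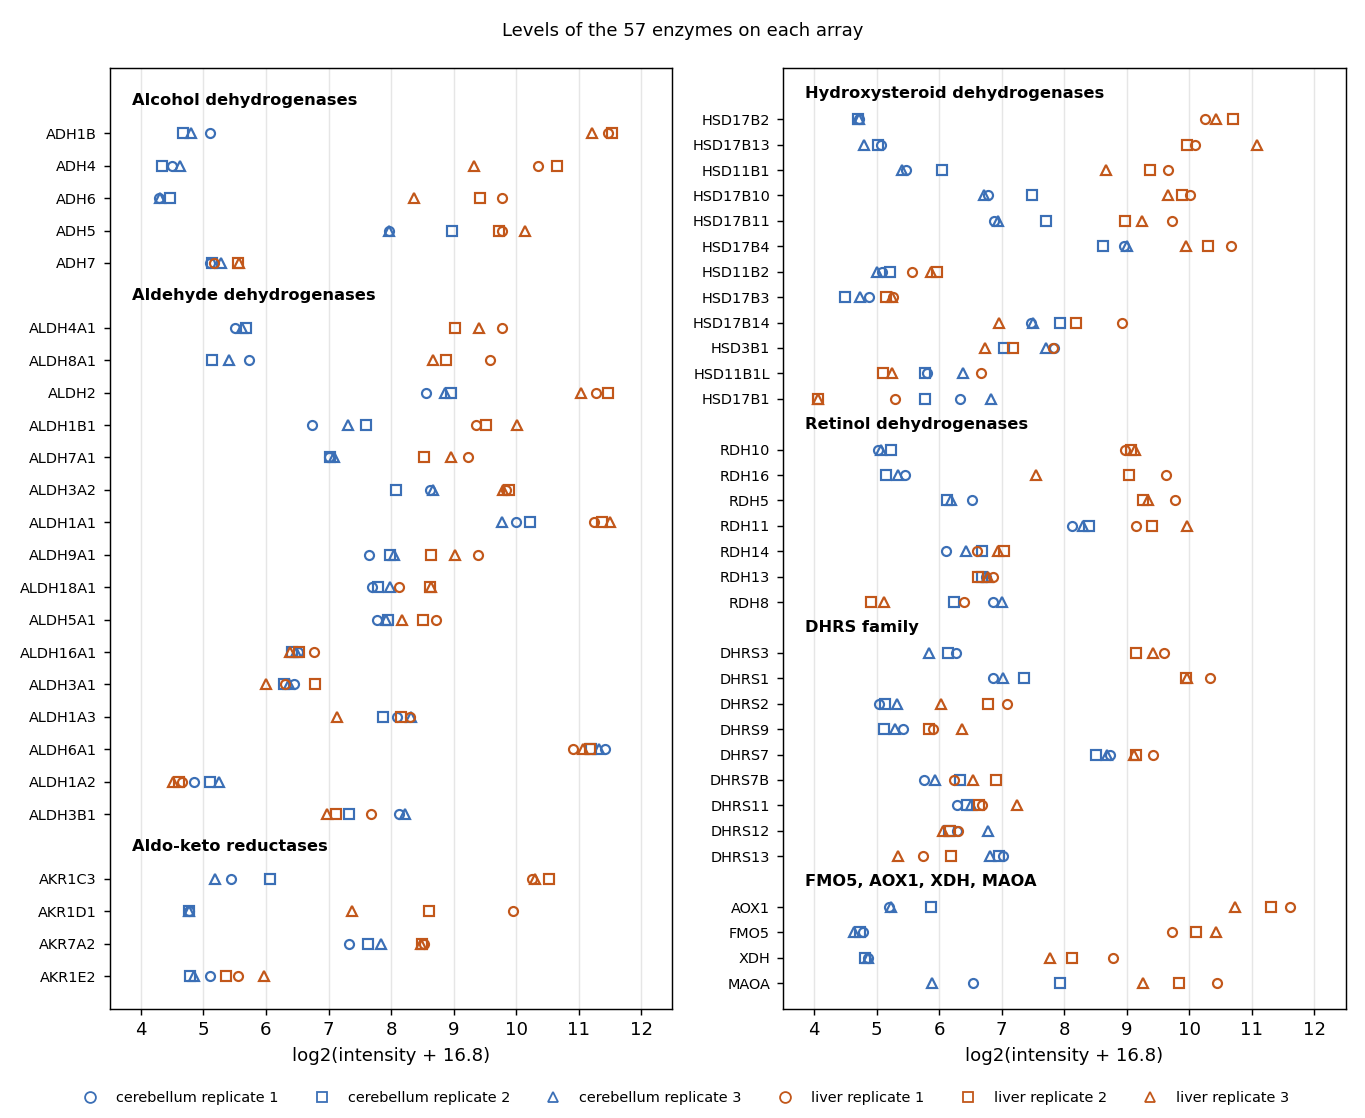
Levels of the 57 enzymes on the scale of log2(intensity + 16.8), 1 symbol per array, blue for cerebellum and orange for liver and shaped by replicate, by class and ordered within a class by the tissue difference. Most rows have all orange symbols to the right of the blue ones, the symbols of ADH7, ALDH3A1, RDH13 and others overlap, and HSD17B1, DHRS13, ALDH1A2 and ALDH6A1 have all blue symbols to the right, of which the last 2 did not pass the test.

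All 4 measured aldo-keto reductases were higher in liver. AKR1C3, which reduces steroids and prostaglandins, was at 26.5, 49.9 and 19.5 in cerebellum and at 1202, 1450 and 1245 in liver (difference -4.80, SE 0.24; limma, adjusted p = 1.23e-06), although close relatives of AKR1C3 can share its signal. AKR1D1, the reductase that gives bile acids and steroid hormones their bent ring junction, was at 10.6, 10.4 and 10.6 in cerebellum and at 971, 375 and 150 in liver. The tissues were far apart, but the livers differed from each other by a factor of 6.49, the widest spread of the enzymes higher in liver. Its difference of -3.88 was -3.22 without liver replicate 1 and -4.51 without liver replicate 3, and passed in both cases (limma, adjusted p = 0.000270 and 4.04e-05). AKR7A2, a reductase of succinic semialdehyde and of toxin aldehydes, was the most even of the enzymes higher in liver, at 354, 346 and 339 there and at 144, 182 and 213 in cerebellum (difference -0.90). AKR1E2 was dim, at 13.5 ± 3.70 against 33.4 ± 11.0 (difference -0.71; limma, adjusted p = 0.0196). AKR1E2 did not pass once cerebellum 2 or cerebellum 3 was left out (limma, adjusted p = 0.0584 and 0.0715), and with the arrays aligned on general genes neither AKR7A2 nor AKR1E2 was called.

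All 5 measured genes of the polyol pathway and of other carbonyl reductases, from a list of 8, were also higher in liver. PTGR1, a reductase of prostaglandins and unsaturated aldehydes, differed most, at 145 ± 43.6 in cerebellum and 1577 ± 192 in liver. CBR1, the main cytosolic carbonyl reductase, was at 580 ± 180 against 1186 ± 195, and DCXR and CRYZ differed by -2.43 and -2.15.

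Hydroxysteroid dehydrogenases were higher in liver for 8 of 12 and in cerebellum for 1. HSD17B2, which oxidises oestradiol and testosterone to weaker forms, was at 9.52, 9.18 and 9.55 in cerebellum and at 1209, 1651 and 1364 in liver (difference -5.75, SE 0.18; limma, adjusted p = 1.67e-07). HSD17B13, a lipid droplet protein of hepatocytes, was at 17.1, 15.6 and 11.1 against 1075, 987 and 2165 (difference -5.42, SE 0.29). Liver replicate 3 held the highest HSD17B13 value of the livers, 1.06 on the log2 scale above the mean of the other 2, the widest deviation upward in that array among the enzymes higher in liver. HSD17B11, the lipid droplet relative that lies directly beside HSD17B13 in the annotation, was at 101, 192 and 107 in cerebellum and 830, 484 and 591 in liver (difference -2.14) and was highest in liver replicate 1.

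The pair that interconverts cortisone and cortisol was measured on both sides. HSD11B1, which forms active cortisol, was at 27.4, 49.5 and 25.6 in cerebellum and at 794, 648 and 393 in liver (difference -3.60, SE 0.29; limma, adjusted p = 1.69e-05). HSD11B2, which inactivates it in kidney and other target tissues of aldosterone, was dim in both tissues, at 17.7 ± 2.54 against 39.2 ± 7.95 (difference -0.69; limma, adjusted p = 0.0115). The call of HSD11B2 was lost without cerebellum replicate 3 (limma, adjusted p = 0.0547) and with the arrays aligned on general genes (0.416). HSD11B1L, a relative of HSD11B1, was at 39.3, 38.1 and 66.6 in cerebellum and at 85.5, 17.5 and 21.3 in liver. Liver replicate 1 lay above all cerebellums and the other livers below them, and without that array the difference went from 0.31 to 0.81 and passed (limma, adjusted p = 0.0254).

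HSD17B10, a mitochondrial enzyme of isoleucine breakdown and of mitochondrial tRNA processing, was at 93.9, 162 and 88.0 in cerebellum and 1016, 929 and 797 in liver (difference -2.86). HSD17B4, the peroxisomal bifunctional enzyme of fatty acid and bile acid side chain oxidation, was at 451 ± 66.2 against 1274 ± 319.7 (difference -1.44). HSD17B3, which makes testosterone in the testis, was near the dim end at 9.40 ± 3.44 against 20.5 ± 1.64, and its difference of -0.52 (limma, adjusted p = 0.0344) did not pass once cerebellum 2, cerebellum 3 or any 1 liver was left out (limma, adjusted p from 0.0566 to 0.0938), with a pseudocount of 38.3 (0.0772), or with the arrays aligned on general genes (0.957). HSD17B14 had liver values of 469, 277 and 107 around cerebellum values of 161, 227 and 165, and did not pass (difference -0.39; limma, adjusted p = 0.492). Without liver replicate 3 its difference was -0.92 and passed (limma, adjusted p = 0.0223). HSD3B1, known from placenta and skin, did not pass, at 173 ± 51.6 against 143 ± 61.7. A further feature, shared by HSD3B1, HSD3B2 and HSD3BP4, was higher in liver. It was at 12.9 ± 2.58 in cerebellum against 105 ± 102 (difference -1.72; limma, adjusted p = 0.0166).

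HSD17B1, which makes oestradiol from oestrone, was the steroid enzyme higher in cerebellum, at 63.9, 37.8 and 97.1 there and at 22.5, -10.6 and -4.20 in liver. All cerebellums lay above all livers, with 2 livers below 0 in the deposited values, and the log2 difference was 1.84 (SE 0.38; limma, adjusted p = 0.00408). The mean in both tissues lay below 96.3, the median of all values, and with a pseudocount of 4.20 or 38.3 the difference was 3.09 or 1.19.

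Other genes of steroid and bile acid synthesis, reduction and action, 17 measured of a list of 23, were higher in liver for 11 and in cerebellum for 2. The largest difference toward liver was that of SLC27A5, an acyl-CoA enzyme of bile acids, at 21.4 ± 0.375 in cerebellum and 1058 ± 358 in liver. CYP27A1, which oxidises the sterol side chain, differed by -4.39, and SRD5A2, the steroid 5-alpha-reductase type 2 that competes with AKR1D1 for substrates, was at 7.14 ± 1.75 against 326 ± 61.4. H6PD, which supplies NADPH to HSD11B1 in the endoplasmic reticulum, was at 26.1 ± 2.70 against 211 ± 60.5 (log2 difference -2.38). The 2 genes higher in cerebellum were NR3C1 and STAR. NR3C1, the glucocorticoid receptor, was at 566 ± 58.2 against 304 ± 35.9 (difference 0.86; limma, adjusted p = 0.00335). STAR, a cholesterol carrier at the dim end of the array in both tissues, was at 7.68 ± 1.83 against -1.88 ± 1.71. Its liver values of -1.87, -0.17 and -3.60 were set to 0 for the fit, and its values in both tissues lay below the pseudocount.

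Retinol dehydrogenases were higher in liver for 4 of 7 and in cerebellum for 1. RDH10, which oxidises retinol to retinal, was at 15.9, 20.8 and 16.8 in cerebellum and at 484, 518 and 546 in liver (difference -3.95, SE 0.16; limma, adjusted p = 4.32e-07), with little spread within either tissue. RDH16, a microsomal enzyme of liver, was at 26.9, 18.8 and 23.6 against 774, 507 and 170. Its livers differed by a factor of 4.55, and its difference of -3.42 was -4.02 without liver replicate 3. RDH5, which makes retinal in the eye and is also known in liver, was at 61.7 ± 12.2 against 694 ± 141 (difference -3.17). RDH11 was at 264, 321 and 298 in cerebellum and at 550, 658 and 983 in liver (difference -1.23), highest in liver replicate 3. RDH13 and RDH14 did not pass, at 89.9 ± 2.72 against 92.0 ± 9.01 and at 69.5 ± 16.8 against 101 ± 17.7, and the interval of RDH13 ran from -0.39 to 0.34.

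RDH8, known as a photoreceptor enzyme, was higher in cerebellum, at 99.2, 59.1 and 111 there and at 67.9, 13.2 and 17.9 in liver (difference 1.23, SE 0.39; limma, adjusted p = 0.0293). The tissues overlapped, since liver replicate 1 lay above cerebellum replicate 2. RDH8 did not pass once cerebellum 1, cerebellum 3, liver 2 or liver 3 was left out (limma, adjusted p from 0.0822 to 0.108), and without liver replicate 1 the difference was 1.69 (limma, adjusted p = 0.00160).

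Members of the DHRS family, short-chain enzymes several of which act on retinoids or steroids, were higher in liver for 5 of 9 and in cerebellum for 1. DHRS3, which turns retinal back into retinol, was at 60.9, 53.8 and 40.6 in cerebellum and at 754, 554 and 673 in liver (difference -3.30, SE 0.20; limma, adjusted p = 3.03e-06). DHRS1 was at 99.6, 148 and 114 against 1268, 971 and 979 (difference -2.99). Neither enzyme had overlapping tissues, and both were highest in liver replicate 1. DHRS2 and DHRS9, both with low signal in cerebellum, were at 19.3 ± 3.64 against 86.9 ± 35.3 and at 22.1 ± 4.12 against 49.9 ± 14.1, with differences of -1.46 and -0.76. DHRS7 was at 383 ± 32.6 against 586 ± 72.4 (difference -0.59; limma, adjusted p = 0.0205), and did not pass once cerebellum 2, cerebellum 3 or liver 1 was left out (limma, adjusted p from 0.0538 to 0.0602). With the arrays aligned on general genes DHRS7 and DHRS9 were not called. DHRS7B, DHRS11 and DHRS12 did not pass, with differences of -0.55, -0.44 and 0.23. DHRS7B passed without cerebellum replicate 2 (difference -0.71; limma, adjusted p = 0.0458) and without liver replicate 1 (-0.72; 0.0404). All 3 livers of DHRS11 lay above its cerebellums.

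DHRS13 was higher in cerebellum, at 113, 107 and 95.8 there and at 36.6, 56.3 and 23.6 in liver (difference 1.18, SE 0.23; limma, adjusted p = 0.00299). Its tissues did not overlap. Of the 3 enzymes higher in cerebellum it alone kept a mean above the median of all values in one tissue, at 105, and with dim features left out it was the only 1 of them still tested.

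Other genes of retinoid handling, 18 measured of a list of 22, were higher in liver for 8 and in cerebellum for 2, and 8 did not pass. RBP4, the retinol carrier of plasma, was at 18.8 ± 6.78 in cerebellum and 4507 ± 538 in liver. The nuclear receptors RXRA and RARA differed by -3.37 and -1.29. CYP26B1, which degrades retinoic acid, was higher in cerebellum at 47.3 ± 9.42 against 19.7 ± 7.02 (difference 0.82; limma, adjusted p = 0.0104). CRABP2, a retinoic acid carrier, was the other one, at 11.0 ± 3.98 against 2.28 ± 3.19 (difference 0.52; limma, adjusted p = 0.0491), with both tissues below the pseudocount.

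The 4 oxidases were all higher in liver. AOX1, a molybdenum enzyme that oxidises aldehydes and many drugs, was at 20.0, 41.7 and 20.6 in cerebellum and at 3108, 2521 and 1684 in liver (difference -5.79, SE 0.28; limma, adjusted p = 9.56e-07). FMO5, a flavin enzyme of liver, was at 10.9, 9.85 and 8.16 against 833, 1092 and 1361 (difference -5.37). The livers ran in opposite orders in these enzymes, with replicate 3 lowest for AOX1 and highest for FMO5. XDH, which makes uric acid, was at 12.3, 11.3 and 12.4 in cerebellum and at 422, 263 and 201 in liver (difference -3.38, SE 0.25).

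MAOA, the mitochondrial oxidase of serotonin and noradrenaline, was also higher in liver, at 76.5, 229 and 42.6 in cerebellum and at 1383, 894 and 595 in liver (difference -3.05, SE 0.51; limma, adjusted p = 0.00112). Its cerebellums differed by a factor of 5.37, the widest spread within cerebellum of the 57 enzymes. The high array was replicate 2, where the sums of endothelial, macrophage, stellate and fibroblast, astrocyte and neuron markers were also highest. Exceptions among single markers are given above, and the part of these markers in the result was not tested. Without that array the difference was -3.63 (limma, adjusted p = 0.000291).

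Of a list of 14 genes of amine synthesis and breakdown, 10 were measured. Among these, 3 were higher in liver (30%, near the 23.9% of all features) and 0 in cerebellum (against 26.7%). They were DDC, the decarboxylase that makes dopamine and serotonin, at 26.9 ± 5.33 against 375 ± 82.5, HNMT, which methylates histamine, at 105 ± 46.2 against 834 ± 102, and the noradrenaline transporter SLC6A2, at 11.0 ± 2.62 against 163 ± 116.

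Genes of purine breakdown and of the molybdenum cofactor, which AOX1 and XDH both carry, were measured for 15 of a list of 17, with 7 higher in liver, 1 in cerebellum and 7 past the threshold in neither direction. GDA, which makes xanthine for XDH, showed the largest difference, at 9.45 ± 1.08 against 500.3 ± 97.9. PNP, which releases hypoxanthine and guanine, and MOCS1, which opens cofactor synthesis, differed by -2.98 and -2.45. MOCOS, which adds the sulphur that AOX1 and XDH need, did not pass, with 124 ± 95.9 against 304 ± 109.6 (limma, adjusted p = 0.0596). HPRT1, which returns hypoxanthine to nucleotides before XDH can oxidise it, was the gene higher in cerebellum, at 635 ± 28.4 against 161 ± 50.9 (difference 1.91).

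Within liver, the enzymes differed in how even their levels were on the 3 arrays, and so did other features higher in liver. With 1 array per sample, differences between animals and between arrays cannot be told apart. Among the 39 enzymes higher in liver, the highest liver was at most 1.5 times the lowest for 17 and more than 2 times for 9. The median ratio was 1.63, against 1.53 for all features higher in liver. Of those features 24% exceeded a ratio of 2, a share close to 9 of 39. In 8 of the 9 uneven enzymes, AKR1D1, RDH16, ADH6, ADH4, DHRS2, MAOA, XDH and HSD11B1, liver replicate 3 was the lowest, and in HSD17B13 it was the highest. How often replicate 3 was lowest among all features with a ratio above 2 was not counted. Nor was the share of features with a ratio of at most 1.5. Against the mean of the other 2 livers, replicate 3 lay at -1.90 for AKR1D1, -1.78 for RDH16, -1.24 for ADH6 and -1.18 for ADH4 on the log2 scale. It lay at -0.29 for ADH1B, -0.32 for ALDH2, -0.08 for AKR1C3 and -0.05 for HSD17B2, and at 0.69 for RDH11, 0.59 for ALDH1B1 and 0.50 for FMO5. Replicate 3 was the lowest liver for 18 of the 39 (46.2%) and the highest for 10, and for all features higher in liver the share with replicate 3 lowest was 37.4%. Replicate 1 was the highest liver for 22 of the 39 (56.4%), against 28.4% of all features higher in liver. The hepatocyte marker sum was lowest and the macrophage and fibroblast marker sums were highest in replicate 3, with the exceptions among single markers given above, and their part in these values was not tested. Without replicate 3, 38 enzymes were higher in liver and 2 in cerebellum.

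**Figure D4:**
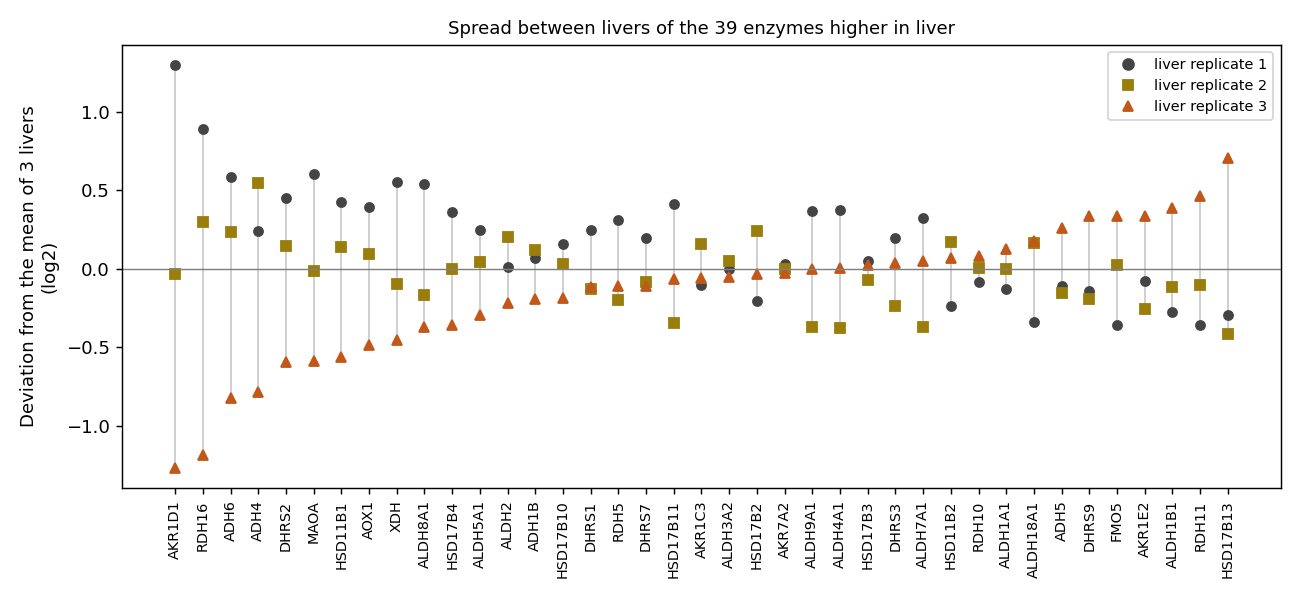
Deviation of each liver array from the mean of the 3 livers (log2 scale with a pseudocount of 16.8) for the 39 enzymes higher in liver, ordered by liver replicate 3. Triangles of replicate 3 run from below -1 for AKR1D1 and RDH16 to above 0.5 for HSD17B13, and circles of replicate 1 are the highest symbol for 22 of the 39.

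An order of arrays was noticed among the 18 enzymes not higher in liver after their values were seen. In 9 of them (50%), ALDH1A3, ALDH3B1, ALDH16A1, HSD3B1, HSD11B1L, HSD17B1, RDH8, RDH13 and DHRS12, liver replicate 1 was the highest liver and cerebellum replicate 2 the lowest cerebellum. The same order held for 20.9% of all features not higher in liver and for 8 of the 39 enzymes higher in liver (20.5%), where 8.9% of all features higher in liver had it. HSD17B1 and RDH8, both called higher in cerebellum, are among the 9, and DHRS13 is not.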

How the data were processed

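The deposited file holds intensities on a linear scale for 15143 features on 6 arrays, as the authors made them. Per the labels' protocols, total RNA came from a TRIzol extraction and ribosomal RNA was reduced before labelling. The submitters' processing notes name GCOS. How background was corrected and probes were summarised is not given in the sources used here. All 6 columns hold the same sorted values (0 positions differ), so they had been quantile normalised, and 93 values per array lie below 0.

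Values below 0 were set to 0, and log2(intensity + 16.8) was fitted with limma 3.58.1 in R 4.3.3 (lmFit, eBayes, two-sided) over all features, with Benjamini-Hochberg adjustment and a threshold of 0.05. The pseudocount, 16.8, is the value that 10% of all intensities lie below, and it shrinks the differences of dim genes. Differences are cerebellum minus liver. P-values rest on the spread between 3 samples per tissue, which eBayes moderates toward that of all features. The number of arrays limits precision, and values set to 0 no longer differ from each other in the fit. Gene names came from the platform annotation (12685 features with 1 symbol, 1780 with several, 678 with none). Neighbouring genes came from RefSeq, where 55 of the 57 symbols matched. Human probes can be mismatched to chimpanzee sequence, so levels of different genes were not compared. Every enzyme is named. Within each class, the enzymes with the 2 largest called differences in each direction, and those called against their class, have every array's value. Of each pathway list, the largest called difference in each direction and up to 2 more genes were to be named, and names beyond that were chosen after their values were seen. Lists were fitted on the deposited scale only. The members and lists were chosen with earlier results of these data known. The fit was tested on simulated data. Alternatives were other pseudocounts, a filter on dim features, alignment on general genes, a replicate block, a test against a 2-fold difference, array weights, another floor and leaving out each array.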

Additional observations from a re-analysis of the deposited data

How the results depend on the processing

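Of the 42 enzymes called, 24 were called under every alternative in which they were tested and 32 when the test against a 2-fold difference and the filter on dim features are set aside, and no called enzyme changed sign. With arrays aligned on general genes the sign turned for ADH7, ALDH16A1, HSD17B14, RDH13, RDH14 and DHRS11, which passed in neither case. The count higher in liver ranged from 34 to 38 when 1 array was left out, that higher in cerebellum from 2 to 5, and that of all features from 6113 to 7670, against 39, 3 and 7662. The test against a 2-fold difference gave 24 enzymes higher in liver, 0 in cerebellum and 2645 features in all, since it asks for more than a difference from 0. The limma fit with the deposited scale gave 3 enzymes higher in cerebellum. That count was 1 without dim features, where 42 of the 57 enzymes were tested, and 7 with arrays aligned on general genes. It was 5 with array weights and 5 without liver replicate 1, and the cause was not tested. The remaining settings left the counts within 1.5 times. Keeping the row with the lowest mean gave the same 39 and 3, since no symbol had a further row that named it alone.

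With the replicate number as a block, 7532 features were called, 38 enzymes were higher in liver and 3 in cerebellum. ALDH5A1 and HSD17B3 were lost (limma, adjusted p = 0.0524 and 0.0542) and DHRS7B was gained (0.0407). Deviations of same-numbered samples from their tissue means correlated across features at 0.11, 0.16 and -0.14 for replicates 1, 2 and 3. Those of samples with different numbers correlated at -0.25 to 0.24, so the correlations cannot decide whether samples share an animal. Since the labels do not say so, the main fit did not pair the samples. Signal over background limits the dim enzymes: 15 of the 57 had both tissue means below 96.3, and 7 of these were called.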
